A study of Homo sapiens with 33 samples.

Results

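DNA repair and damage checkpoint genes are described here across anaplastic large cell lymphoma cells in which the ALK oncogene was silenced with a hairpin RNA or its kinase was inhibited. The set was named by function, though with earlier results of these data known. It holds 40 genes of homologous recombination, the Fanconi anaemia pathway, mismatch repair, end joining, base excision repair and the damage checkpoint. A gene was found by its symbol, and each probe set that the array's annotation ties to that symbol alone was taken. Of the 40 genes, 37 had such a probe set, with 63 probe sets among them, out of 11963 named genes and 22215 probe sets in the series. The other 3 genes were not analysed here. RAD54B, a relative of the strand exchange motor RAD54L, lay between 3.8 and 30.0 signal units on all 33 arrays and was removed by the filter on low values, so 36 genes were tested.

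The study measured total RNA of 2 human lines on Affymetrix arrays, with 11 groups of 3 arrays: Su-DHL1, and TS, which was subcloned from Sup-M2. For the silencing experiments the lines carried a lentiviral hairpin under a doxycycline-inducible promoter, either A5, directed at ALK, or, in TS only, A5M, its mutated control. Carrier cells were sorted for GFP and DsRed after a short induction, and cells with GFP in the absence of doxycycline were then removed by a second sort. The groups with the hairpin were TS cells with A5 after 84 hours with doxycycline (1 microg/ml) or without it, TS cells with A5M after 84 hours with doxycycline, TS cells with A5 after 72 hours with or without it, and Su-DHL1 cells with A5 after 72 hours with or without it. The groups with inhibitors were TS cells held for 6 hours with the pyrrolocarbazole-derived compounds A2 or A3, with compound A1, or with no compound (U), each compound at 300 nM. A1 is called a mock compound in the study's design text and an ALK inhibitor in the sample descriptions, and U is called both untreated and control diluent. A5M cells were transduced separately and were measured only at 84 hours with doxycycline, and Su-DHL1 had no A5M group and no 84 hour group. Nothing in the labels says whether replicates came from separate cultures, and the spread behind every p-value may therefore be technical. The lymphoma markers ALK, TNFRSF8, IL2RA, GZMB, PRF1 and MUC1 were all above the 40th percentile of the array on every array. Of 12 T cell markers measured, CD3D was above it on every array and 4 (CD7, CD28, LCK and ZAP70) on none.

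Breaks through both DNA strands are mended by homologous recombination, which copies the intact sister chromatid and so works in cells that have replicated their DNA, or by end joining, which ligates the broken ends at any stage of the cycle. Fanconi proteins start the repair of crosslinks between strands, mismatch and base excision repair replace wrong or damaged bases, and the kinases ATM and ATR pass damage signals to CHEK2 and CHEK1, which halt the cell cycle. Many genes of recombination and of the ATR branch are transcribed together with DNA replication genes when cells enter S phase, under factors of the E2F family. ALK fused to a partner gene drives most lymphomas of this type, and its kinase keeps the cells dividing.

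The promoters of the members were searched for the letters that E2F factors are known to read. The search covered 250 bases before to 50 bases after each annotated start in RefSeq (GRCh38.p14), on both strands, for TTCCCGC and for its variants, which are the letters TTGGCGC, the letters TTCGCGC and the letters TTGCCGC. Such a match stood in 13.0% of the 35116 windows of all genes and in 66.7% of the 33 windows of members called lower by the hairpin, that is 22 windows, which belong to 17 of the 23 genes found in the table. It stood in 58.7% of the 46 windows of all members, in 4 of the 10 windows of members not called (40%; FANCC, FANCE and XRCC2) and in that of FANCF, which was called higher. It stood in 38.1% of the windows of other repair genes, in 60.0% of those of DNA replication genes and in 27.6% of those of mitosis genes. The cell cycle homology region TTTGAA, the letters shared by many mitosis promoters, stood in 3.03% of the windows of members called lower, in 65.5% of those of mitosis genes and in 15.2% of all windows. CCAAT stood in 51.5% of the windows of members called lower and in 34.6% of all windows. The 6 stretches shown are upstream of the start in genes that fell; the capitals mark the E2F letters on either strand, and GCGGGAA is TTCCCGC read on the opposite strand. In TOPBP1 the capitals hold 2 overlapping matches, TTGGCGC and, on the opposite strand, the letters TTCGCGC. The stretches lie at chr1:46247607-46247676 for RAD54L (plus strand), chr12:4538820-4538889 for RAD51AP1 (plus), chr9:35079989-35080058 for FANCG (minus), chr3:133661942-133662011 for TOPBP1 (minus), chr15:90717240-90717309 for BLM (plus) and chr12:109097527-109097596 for UNG (plus), each written 5′ to 3′ along its gene.
RAD54L: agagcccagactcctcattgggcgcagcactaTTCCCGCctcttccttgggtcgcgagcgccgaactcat
RAD51AP1: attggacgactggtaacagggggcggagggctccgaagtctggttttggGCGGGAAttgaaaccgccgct
FANCG: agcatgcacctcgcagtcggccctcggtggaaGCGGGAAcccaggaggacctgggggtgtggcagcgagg
TOPBP1: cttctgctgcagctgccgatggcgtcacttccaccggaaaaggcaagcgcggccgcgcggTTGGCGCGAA
BLM: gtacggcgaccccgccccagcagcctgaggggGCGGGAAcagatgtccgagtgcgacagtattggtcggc
UNG: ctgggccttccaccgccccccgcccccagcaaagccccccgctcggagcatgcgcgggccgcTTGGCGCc
The match begins 49 bases before the start in RAD54L, 21 in RAD51AP1, 84 in FANCG, 74 in BLM and 8 in UNG. In EXO1 and BARD1 the match lay just after the start, 6 and 5 bases into the transcript, and the windows of CHEK1 held CCAAT but none of the E2F letters. A match is a description of these letters, not evidence that a factor binds there.

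Induction of the ALK hairpin lowered most repair and checkpoint genes. Averaged with equal weight over its 3 settings (TS at 84 hours, TS at 72 hours and Su-DHL1 at 72 hours), 27 of the 36 members fell, 2 rose and 7 did not pass the test, which was limma with Benjamini-Hochberg adjustment over all 9097 genes at an adjusted p of 0.05. Among all genes tested 21.7% were called lower and 29.1% higher. The median change of the members was -0.58 on the log2(signal + 11) scale, against 0.07 over all genes, and 8 members fell at least 2-fold, as 2.98% of all genes did. All 27 had a negative difference in each of the 3 settings. The 27 were picked by the average of these settings, so that agreement in sign is partly built in. Every log2 fold change is on the log2(signal + 11) scale, which understates changes of weak probe sets, and signals of different probe sets are not set against each other. In bulk RNA, fewer cells that express a gene and less RNA of it in each cell cannot be told apart.

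**Figure D1:**
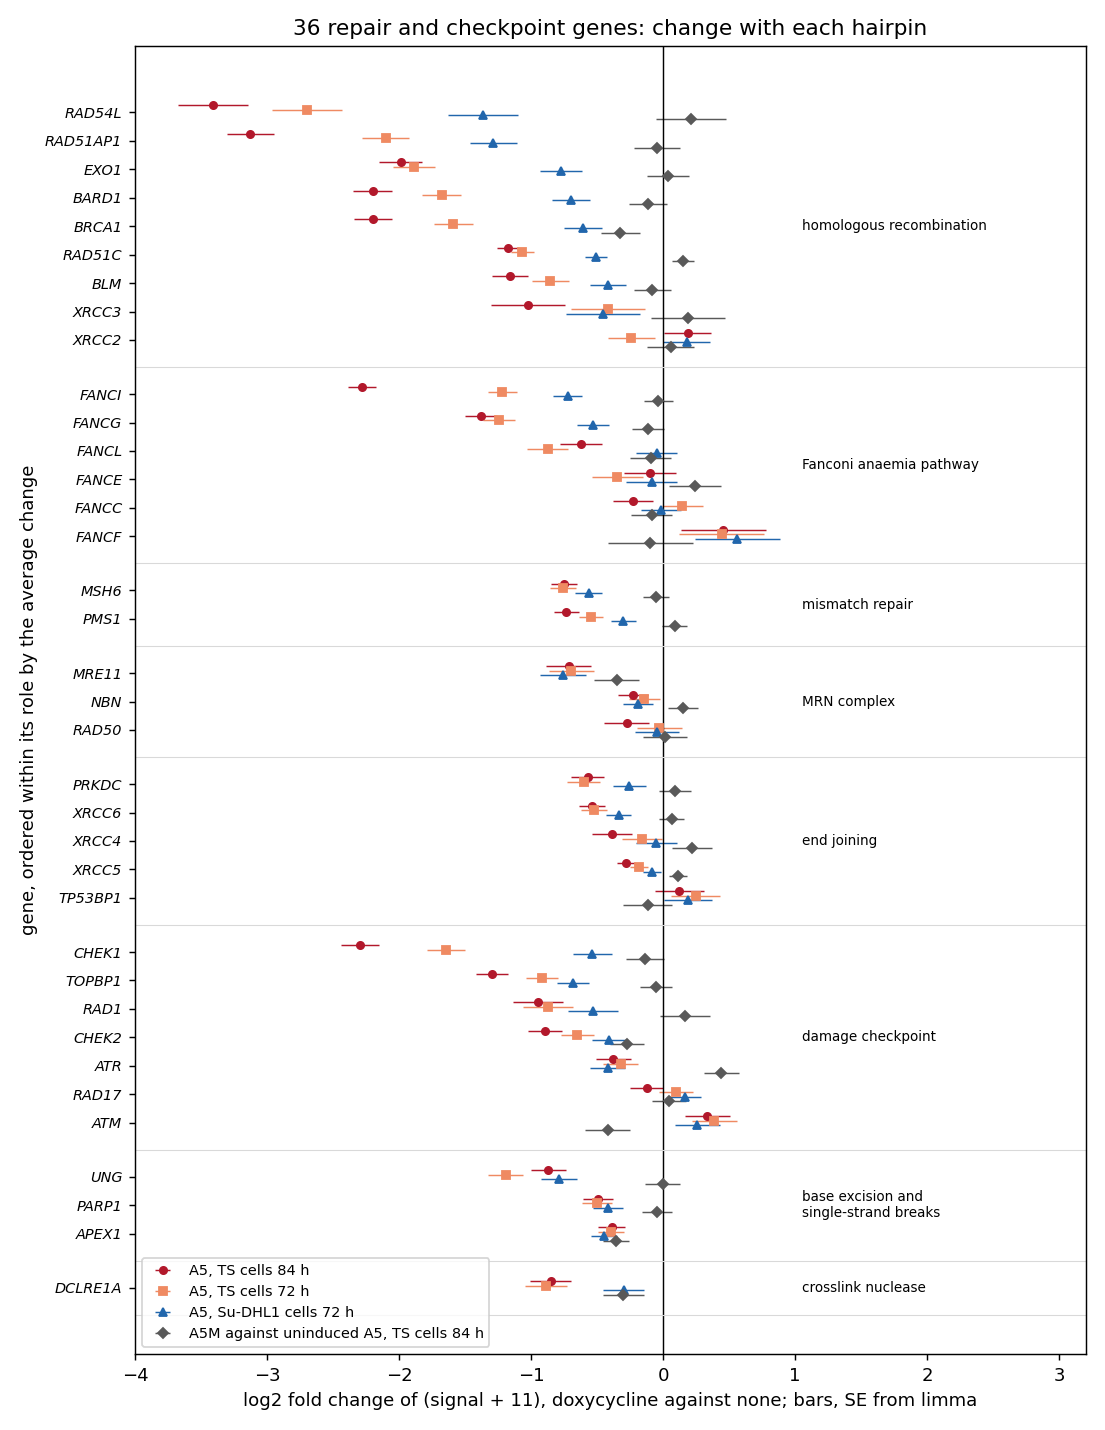
Log2 fold change of (signal + 11) of each of the 36 tested genes in 4 comparisons of 3 against 3 arrays, with the standard error from limma as bars, grouped by role. The ALK hairpin points of the recombination genes lie farthest to the left, down to -3.41 for RAD54L in TS cells at 84 hours, while the A5M points lie between -0.42 and 0.44.

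ALK itself was lower on every induced A5 array: 248.0 ± 44.2 signal units against 2039 ± 97.2 without doxycycline in TS at 84 hours, 330.2 ± 52.4 against 1823 ± 19.1 in TS at 72 hours and 637.2 ± 12.3 against 2966 ± 219.3 in Su-DHL1 (SD, n = 3 each). With A5M it stood at 1686 ± 46.5. The 3′ to 5′ signal ratio of ACTB, a measure of how far the labelled RNA reaches, also moved with the groups: it was 1.27 ± 0.02 in induced and 1.54 ± 0.05 in uninduced TS cells at 84 hours and 1.32 ± 0.05 and 1.59 ± 0.11 at 72 hours, without overlap, whereas in Su-DHL1 it was 1.36 ± 0.08 and 1.39 ± 0.03 with overlap. With the ratio as a covariate, 19 members were called lower and 1 higher in the average. Of all 9097 genes 1164 were then called lower and 1277 higher. The members' median was -0.50 in that fit. The calls lost were those of XRCC3 (-0.47), FANCF (0.79), FANCL (-0.35), NBN (-0.16), XRCC5 (-0.18), ATR (-0.41), APEX1 (-0.27), PARP1 (-0.23) and DCLRE1A (-0.45). Some marker sums differed as well, while those of 6 B cell and of 12 T cell markers overlapped between induced and uninduced arrays in each setting. The summed signal of 6 myeloid markers was 432.4 to 494 in induced against 217.3 to 294.1 in uninduced TS cells at 84 hours, 575.7 to 665 against 258 to 328.6 at 72 hours and 344.1 to 402.8 against 189.1 to 226.8 in Su-DHL1. Of those 6, CSF1R rose in the average (1.31 ± 0.09), ITGAM (0.10 ± 0.11) and MPO (0.22 ± 0.17) did not pass, and CD14, LYZ and FCGR1A were below the 40th percentile on every array. The sum of 8 epithelial and stromal markers was 444.7 to 525.6 against 284.1 to 370 in TS at 84 hours and overlapped in the other settings; DCN (1.02 ± 0.13) and KRT18 (0.72 ± 0.17) rose, COL1A1, COL3A1 and KRT8 did not pass, and EPCAM, KRT19 and CDH1 were below the 40th percentile on every array. The 6 lymphoma markers summed to 6466.7 to 7191.1 against 11546.4 to 11877.7 in TS at 84 hours, 6551.5 to 6613.4 against 12151 to 13253.1 at 72 hours and 11501.9 to 12731.3 against 16388.6 to 18151 in Su-DHL1; ALK, IL2RA, TNFRSF8 and GZMB fell, while PRF1 and MUC1 rose. The part of such cells in the members' changes was not tested.

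Homologous recombination held the largest falls: 8 of its 9 tested members fell, with a median of -1.47 over the 9. RAD54L, a motor protein of recombination, gave signals of 5.1, 14.4 and 4.2 in induced TS cells at 84 hours against 185, 165.6 and 205.5 without doxycycline, 12, 30.1 and 38.6 against 219.6, 223.6 and 223.8 at 72 hours, and 16.7, 35.8 and 39.3 against 113, 99.3 and 70.5 in Su-DHL1. Every induced array lay under every uninduced array of its setting, and at 84 hours the induced signals lay in the range at which RAD54B was removed as too weak, so no share of signal left is given. The averaged difference was -2.49 ± 0.15 (SE, adjusted p = 1.47e-12). With a pseudocount of 1 it was -3.12 and with 32 it was -1.87.

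RAD51AP1, which helps the pairing of DNA strands, gave 34.5, 26.1 and 30.7 against 445.9, 283.3 and 337.2 in TS at 84 hours, 80, 105 and 69.7 against 357.1, 387.5 and 448.2 at 72 hours, and 123.5, 152.5 and 178.7 against 428.6, 385.1 and 336.2 in Su-DHL1. The groups did not overlap in any setting. Its averaged difference was -2.17 ± 0.10 (adjusted p = 9.98e-15), with 8.56%, 21.4% and 39.5% of the uninduced mean left. EXO1, the nuclease that trims break ends and also serves mismatch repair, gave 58.2, 56 and 38.2 against 222.7, 226.4 and 246 in TS at 84 hours, 59.4, 50.3 and 66.2 against 246.3, 276.7 and 216.5 at 72 hours, and 88.6, 107.5 and 102 against 191.9, 205.1 and 140.8 in Su-DHL1. Again no induced array reached an uninduced one, and the averaged difference was -1.55 ± 0.09 (adjusted p = 8.32e-13).

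BRCA1, which promotes recombination, and BARD1, its partner in a ubiquitin ligase, fell by like amounts. BARD1 gave 82.8, 80.3 and 78.4 against 404.4, 458.2 and 370.1 in TS at 84 hours, 111.2, 116.8 and 165.8 against 377.3, 530.5 and 417.9 at 72 hours, and 106.7, 107.9 and 147 against 211.2, 194.9 and 194.9 in Su-DHL1. BRCA1 gave 58.4, 72.6 and 70.7 against 375.7, 323.8 and 343.4 in TS at 84 hours, 114.6, 129 and 107.6 against 371, 391.2 and 357.7 at 72 hours, and 160.1, 200.4 and 207.4 against 345.6, 331.3 and 218.4 in Su-DHL1. Neither gene's groups overlapped, though the lowest uninduced Su-DHL1 array of BRCA1 lay just above the highest induced one. The averaged differences were -1.52 ± 0.08 for BARD1 (adjusted p = 2.22e-13) and -1.47 ± 0.08 for BRCA1 (adjusted p = 4.13e-13).

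The other recombination members fell less. RAD51C, a recombination factor, changed by -0.92 ± 0.05, BLM, the helicase that dissolves joined recombination intermediates, by -0.81 ± 0.08, and XRCC3, which pairs with RAD51C, by -0.63 ± 0.16 (adjusted p = 0.00199). XRCC2, another recombination factor, was the member of this role that did not pass, at 0.04 ± 0.10 (adjusted p = 0.776).

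**Figure D2:**
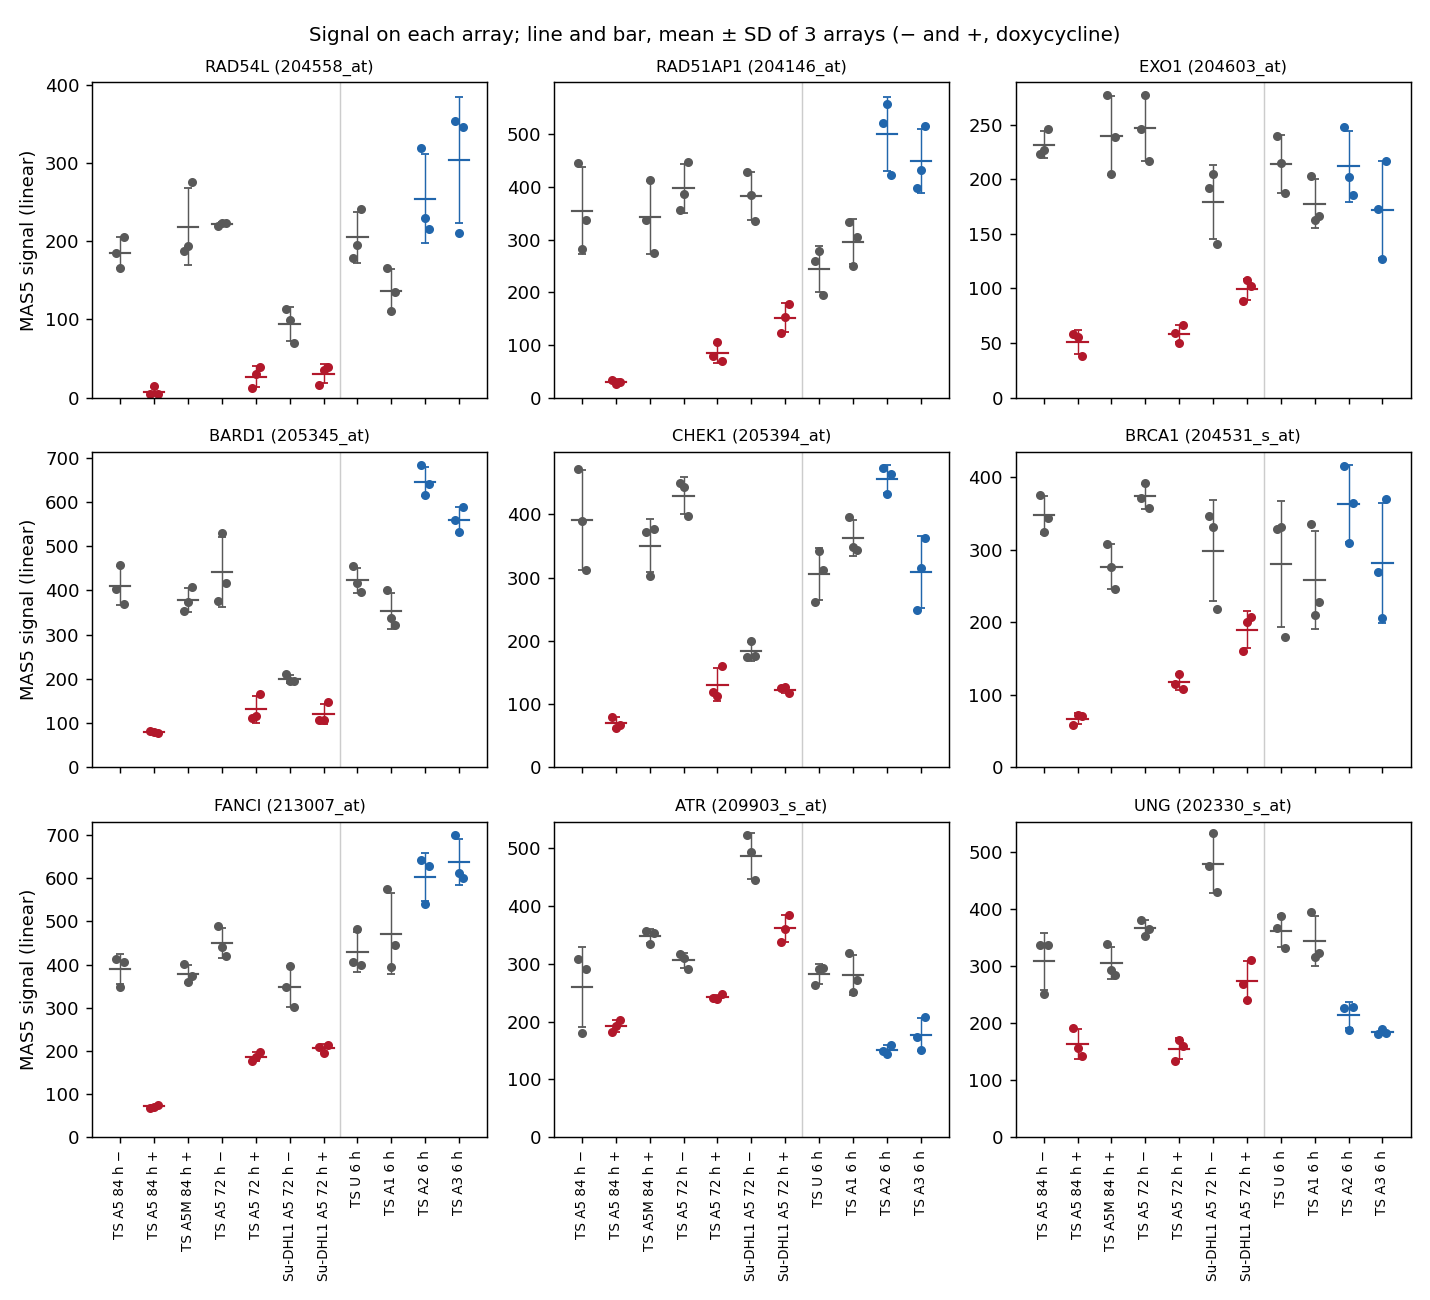
MAS5 signal of 9 genes on each array (points) in all 11 groups, with the mean and SD of 3 arrays as line and bar on a linear axis; red marks the induced ALK hairpin, blue A2 and A3, and grey the other groups, A5M included. The red points of RAD54L, RAD51AP1 and FANCI lie under their uninduced groups in every setting, while the blue points of RAD51AP1, BARD1 and FANCI lie above the A1 and U means.

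In the Fanconi anaemia pathway 3 of 6 tested members fell, 1 rose and 2 did not pass, with a median of -0.35. FANCI, which with FANCD2 forms the clamp that is ubiquitinated at a crosslink, gave 68.3, 71.1 and 74.2 against 412.8, 348.8 and 404.9 in TS at 84 hours, 175.9, 186.9 and 198 against 488.4, 440.5 and 420.3 at 72 hours, and 208.7, 194.6 and 214.1 against 348.1, 396.2 and 301.7 in Su-DHL1. It had the smallest adjusted p of all members in the average, 3.68e-15, at -1.41 ± 0.06, and its groups did not overlap. FANCG, a subunit of the core ligase complex, changed by -1.05 ± 0.07 (adjusted p = 7.91e-12), and FANCL, the catalytic ligase subunit, by -0.51 ± 0.09 (adjusted p = 3.49e-05). The core subunits FANCE, at -0.18 ± 0.11, and FANCC, at -0.03 ± 0.09, did not pass; under quantile normalization FANCE was called lower at -0.29 (adjusted p = 0.0360).

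FANCF, an adaptor of the core complex, was one of the 2 members called higher, but on weak and scattered signals. It gave 70.1, 141.5 and 115.5 against 97.5, 71.8 and 56.7 in TS at 84 hours, 140.9, 150.3 and 119.8 against 107, 114.8 and 74.9 at 72 hours, and 58.7, 132.4 and 94 against 69.1, 93.6 and 27.9 in Su-DHL1. Only at 72 hours in TS were the groups apart, and the averaged difference was 0.49 ± 0.19 (adjusted p = 0.0322). The call was lost without any filter on low values, under quantile normalization, with the ACTB ratio as a covariate, and when any one of 7 of the 18 arrays was left out, where values without 1 array ran from 0.35 to 0.59; the lowest came without uninduced Su-DHL1 replicate 3.

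Of the 7 damage checkpoint genes 5 fell and 1 rose, with a median of -0.65. CHEK1, the kinase that ATR activates at stalled forks, gave 80.1, 62.9 and 66.6 against 470.7, 388.9 and 312 in TS at 84 hours, 119.5, 112.5 and 161 against 449.3, 442.4 and 396.6 at 72 hours, and 124.8, 126.9 and 117.4 against 174.5, 200.4 and 175.6 in Su-DHL1. The groups were apart in each setting, and the averaged difference was -1.49 ± 0.08 (adjusted p = 2.45e-13). TOPBP1, the activator of ATR, changed by -0.97 ± 0.07, RAD1, a subunit of the checkpoint clamp, by -0.78 ± 0.11, and CHEK2, the kinase downstream of ATM, by -0.65 ± 0.07, each with an adjusted p of at most 1.40e-06.

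The apical kinases moved in opposite directions by small amounts. ATR gave 182.1, 193 and 202.5 against 308.7, 180.9 and 290.3 in TS at 84 hours, where uninduced replicate 2 lay under all induced arrays, 241.5, 238.4 and 247.1 against 316.2, 310.9 and 290.6 at 72 hours, and 338.5, 360.2 and 385.3 against 523.2, 493.1 and 444.8 in Su-DHL1. The averaged difference was -0.37 ± 0.08 (adjusted p = 0.000227). ATM gave 124.6, 155 and 122.4 against 86.8, 123.2 and 103.4 in TS at 84 hours, 155.1, 145.5 and 159.3 against 97.7, 104.6 and 146.5 at 72 hours, and 139, 131.4 and 113.4 against 104.5, 98.6 and 111.7 in Su-DHL1. Its groups were apart only in Su-DHL1, and the averaged difference was 0.33 ± 0.10 (adjusted p = 0.00739). Under quantile normalization it was 0.22 (adjusted p = 0.0575), so that no member was called higher under that scaling. RAD17, the loader of the checkpoint clamp, did not pass at 0.05 ± 0.07 by its brightest probe set, but its other probe sets gave -0.42 (adjusted p = 0.00100 in a fit over all probe sets that passed the filter) and -0.04, and the mean of all 3 was called lower at -0.14 (adjusted p = 0.0213).

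In the remaining roles no member's average changed by 2-fold. In mismatch repair, MSH6, which recognises mismatches, and PMS1, a MutL homologue, fell by 0.69 ± 0.06 and by 0.53 ± 0.05 on the log2 scale. In the MRN complex, which senses breaks and tethers their ends, the nuclease MRE11 changed by -0.72 ± 0.10 (adjusted p = 1.25e-06) and NBN by -0.19 ± 0.07 (adjusted p = 0.0206), while RAD50 did not pass at -0.12 ± 0.10. NBN's call was lost without induced TS replicate 1 at 84 hours, at -0.16 (adjusted p = 0.0531), and its other probe sets gave -0.53, -0.11 and -0.05. In end joining, the kinase subunit PRKDC changed by -0.48 ± 0.07 and the Ku subunits XRCC6 by -0.47 ± 0.06 and XRCC5 by -0.18 ± 0.04. XRCC4, the ligase scaffold, did not pass at -0.20 ± 0.09 (adjusted p = 0.0626), nor did TP53BP1, which shields ends from trimming, at 0.19 ± 0.11. XRCC4 was called under quantile normalization, at -0.29 (adjusted p = 0.00980), with only the compared arrays and without any one of 3 arrays, but stood at 0.05 with the ACTB covariate. TP53BP1 was called higher by the mean of its probe sets, at 0.25 (adjusted p = 0.0231).

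In base excision and single-strand break repair all 3 members fell. UNG, the glycosylase that removes uracil, gave 192.5, 156.5 and 142.5 against 337.1, 251.6 and 337.2 in TS at 84 hours, 134.6, 170.5 and 160.1 against 381.8, 353.7 and 365.8 at 72 hours, and 269.5, 241.1 and 311.1 against 476.6, 533.7 and 429.8 in Su-DHL1. No groups overlapped, and the averaged difference was -0.95 ± 0.08 (adjusted p = 2.56e-10). PARP1, the strand break sensor, changed by -0.47 ± 0.07 and APEX1, the abasic site nuclease, by -0.41 ± 0.06. DCLRE1A, a nuclease of crosslink repair, changed by -0.68 ± 0.09 (adjusted p = 7.58e-07).

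Taken setting by setting, the members called lower were 27 of 36 in TS at 84 hours, where 18.8% of all genes were called lower and 21.8% higher, 24 in TS at 72 hours (15.2% lower and 19.0% higher) and 21 in Su-DHL1 at 72 hours (10.7% lower and 13.9% higher). No member was called higher in any of the 3, and at an unadjusted p under 0.05 limma gave 0, 1 and 0 members higher. The members' median change was -0.72, -0.63 and -0.42 in that order. With the ACTB ratio as a covariate, the count was 17 in TS at 84 hours, 17 at 72 hours and 20 in Su-DHL1. Of all 9097 genes 971, 698 and 950 were then called lower. The members' median was -0.64, -0.60 and -0.42. In Su-DHL1 the count of members called lower lay between 16 and 19 when any one array was left out. Among all genes tested in those fits, 765 to 869 were called lower.

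The response in TS and in Su-DHL1 at 72 hours rests on different arrays. Of the 36 members, 30 (83.3%) had a negative difference in both lines, 4 a positive one in both and 2 opposite signs, against 29.4%, 46.2% and 24.3% of all genes. Over the 36 members the changes in the lines correlated at r = 0.89, and over all 9097 genes at r = 0.74. Both are descriptions across genes, which are not independent replicates. The fall was larger in TS for 22 of the 27 members that fell in the average. That average weighs TS more than Su-DHL1, and no share over all genes is given for this count. As a test of the difference between lines, the interaction term called 7 members, all with a smaller fall in Su-DHL1, where 1.68% of all genes were called in that direction, and none in the other, where 1.21% were and 0 members had an unadjusted p under 0.05.

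Among the members called, EXO1 differed most between the lines, at -1.89 ± 0.16 in TS and -0.77 ± 0.16 in Su-DHL1, a difference of 1.11 ± 0.23 (adjusted p = 0.00478). CHEK1 changed by -1.65 and -0.54 (difference 1.11 ± 0.20, adjusted p = 0.00182), BARD1 by -1.68 and -0.70 (0.98 ± 0.21, adjusted p = 0.00663) and BRCA1 by -1.59 and -0.61 (0.98 ± 0.21, adjusted p = 0.00647). The other 3 were RAD51C (0.56), FANCG (0.71) and FANCL (0.82, adjusted p = 0.0413). RAD54L and RAD51AP1, with the largest falls in both lines, differed by 1.33 ± 0.37 (adjusted p = 0.0559) and 0.82 ± 0.25 (adjusted p = 0.0806) and were not called. With the ACTB ratio as a covariate only CHEK1 was still called, where 56 of all 9097 genes were called in that direction. The differences were then 1.14 for EXO1, 1.08 for BARD1, 0.82 for BRCA1, 0.57 for RAD51C, 0.78 for FANCG and 0.62 for FANCL. FANCG's call was lost without any one of 4 arrays and FANCL's without any one of 9 of 12, with values from 0.56 to 0.82 and from 0.58 to 0.97.

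**Figure D3:**
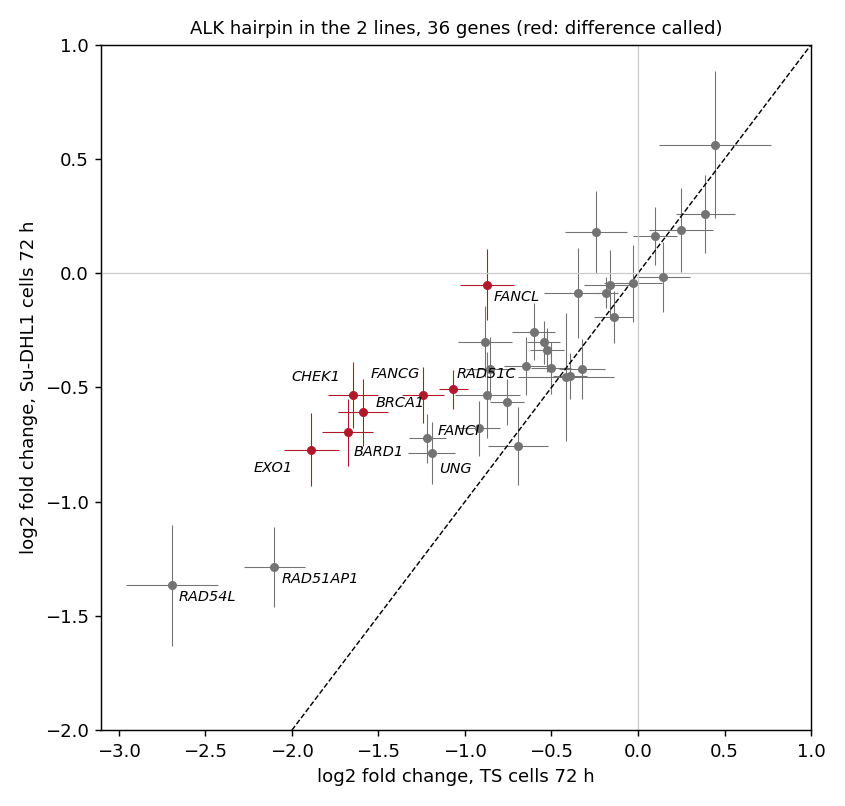
Log2 fold change of each of the 36 genes with the ALK hairpin at 72 hours in TS cells (horizontal) and Su-DHL1 cells (vertical), with standard errors from limma; the dashed line marks equal change and red the 7 genes whose difference between lines was called. The red genes lie above the line, with TS changes between -1.89 and -0.87 and Su-DHL1 changes between -0.77 and -0.05.

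Before induction the lines already differed in these genes. Uninduced Su-DHL1 was lower than uninduced TS at 72 hours for 9 members, where 10.4% of all genes were called lower, and higher for 1 member, where 10.8% were called higher. CHEK1 differed most, with 174.5, 200.4 and 175.6 in Su-DHL1 against 449.3, 442.4 and 396.6 in TS, without overlap, a difference of -1.18 ± 0.14 (adjusted p = 1.80e-06). RAD54L was lower by -1.17, BARD1 by -1.09, RAD51C by -0.68 and RAD50 by -0.49 on the log2 scale, and ATR was the member called higher, at 0.65 ± 0.13. The other 4 called lower were EXO1, PMS1, FANCI and XRCC5, between -0.45 and -0.35. The calls of EXO1 and RAD50 were lost without any one of 4 and of 5 of the 6 arrays, and that of FANCI without TS replicate 1 or Su-DHL1 replicate 3, at -0.30 and -0.27. Of the 7 members whose fall differed between the lines, CHEK1, BARD1, RAD51C and EXO1 were among the 9 that began lower; both differences use the uninduced 72 hour arrays.

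In TS cells the changes at 84 and 72 hours also come from different arrays. Of the 36 members, 30 were lower at both times, 3 higher at both and 3 had opposite signs, against 32.8%, 45.0% and 22.2% of all genes. The fall was larger at 84 hours for 20 of the 27 members that fell in the average. Both times enter that average, and no share over all genes is given for this count. The difference between times called 2 members, both with a larger fall at 84 hours, where 0.978% of all genes were called in that direction; none was called in the other direction (0.297% of all genes), where 0 members had an unadjusted p under 0.05. FANCI changed by -2.28 ± 0.11 at 84 hours and -1.22 ± 0.11 at 72 hours, a difference of -1.06 ± 0.15 (adjusted p = 0.000265). RAD51AP1 changed by -3.13 and -2.10, a difference of -1.02 ± 0.25 (adjusted p = 0.0382), and its call was lost without any one of 8 of the 12 arrays, with values from -1.17 to -0.85.

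With the mutated hairpin A5M and doxycycline few members were called against uninduced A5 cells. Against uninduced A5 at 84 hours, 1 member was called lower and 1 higher, as 3.76% and 3.24% of all genes were, and the members' median was -0.04. ATR gave 356.3, 335.1 and 353.1 with A5M against 308.7, 180.9 and 290.3, so that all A5M arrays were higher, at 0.44 ± 0.13 (adjusted p = 0.0449). APEX1 was lower at -0.36 ± 0.10 (adjusted p = 0.0311). Each call was lost in 4 of the 6 fits that left out 1 array, and without uninduced replicate 2 the differences were 0.21 for ATR and -0.26 for APEX1. RAD54L gave 187, 193.4 and 275.9 with A5M, which overlaps the uninduced range of 165.6 to 205.5.

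Set against A5M, the induced ALK hairpin at 84 hours called 26 members lower and 1 higher, where 20% and 23.3% of all genes were called. RAD54L differed most, with 5.1, 14.4 and 4.2 against 187, 193.4 and 275.9, at -3.62 ± 0.27 (adjusted p = 7.14e-11). RAD51AP1 followed at -3.08, FANCI at -2.24, CHEK1 at -2.16, BARD1 at -2.09 and EXO1 at -2.03. ATR was lower by -0.82 ± 0.13 and ATM higher by 0.75 ± 0.17 (adjusted p = 0.000836). APEX1, with a difference of -0.03 ± 0.10, and MRE11, with -0.36 ± 0.17 (adjusted p = 0.0930), fell against uninduced cells but did not pass here. This comparison shares its induced arrays with the TS 84 hour comparison given before.

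The 6 hour treatment with ALK inhibitors gave another picture. Averaged over A2 and A3 and set against A1, 4 of 36 members fell and 7 rose, where 16.3% of 8587 genes were called lower and 22.0% higher, so the share of members called was near that of all genes. The members' median was 0.08 and that of all genes 0.03. The members that rose were RAD54L (0.95 ± 0.17, adjusted p = 0.000320), FANCG (0.85 ± 0.14), BARD1 (0.75 ± 0.10, adjusted p = 1.02e-05), RAD51AP1 (0.66 ± 0.14), MRE11 (0.52 ± 0.15), FANCI (0.40 ± 0.12) and RAD17 (0.33 ± 0.09). Those that fell were FANCF, UNG (-0.76 ± 0.11, adjusted p = 3.08e-05), ATR (-0.74 ± 0.12) and PMS1 (-0.57 ± 0.12). Without A1 replicate 2 the calls of FANCI (0.28) and MRE11 (0.39) were lost, and without A1 replicate 3 those of FANCI (0.37) and RAD17 (0.28). EXO1, CHEK1 and BRCA1, among the largest falls with the hairpin, stood at 0.09 ± 0.15, 0.04 ± 0.12 and 0.30 ± 0.20 and did not pass. With A2 against A1 BRCA1 was not called at 0.50, but its other probe set gave 0.67. The adjusted p of that probe set was 0.00562 in a limma fit over all probe sets that passed the filter.

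RAD54L gave 319.3, 229.4 and 215 with A2 and 353.8, 210.5 and 345.9 with A3, against 165.8, 110.3 and 134.9 with A1 and 178.5, 195 and 241.2 without compound. Both inhibitor groups lay above A1, but both overlapped U, and against U the differences were 0.29 ± 0.20 for A2 and 0.52 ± 0.20 for A3 (adjusted p = 0.301 and 0.0581). RAD51AP1 gave 522.6, 558.7 and 423 with A2 and 397.5, 433.4 and 516.9 with A3, against 334, 249.5 and 305 with A1 and 260.4, 278.6 and 195.8 without compound. Every inhibitor array was above every A1 and U array, and against U the rise was 1.01 ± 0.16 for A2 and 0.85 ± 0.16 for A3. BARD1 likewise gave 682.5, 615.8 and 640.2 with A2 and 558.6, 531.4 and 589.3 with A3 against 400.8, 337.1 and 322.8 with A1 and 454.3, 416.4 and 397.1 without compound.

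UNG gave 226.9, 188.3 and 228.4 with A2 and 181.3, 189.6 and 182.5 with A3, against 395.6, 315.8 and 323 with A1 and 366.8, 388.2 and 331.5 without compound. All 6 inhibitor arrays lay under all 6 others, and A3 against U was the largest fall of a member against U, at -0.93 ± 0.13 (adjusted p = 2.08e-05). ATR gave 149.9, 143.7 and 159.6 with A2 and 173.3, 151.5 and 208.4 with A3 against 319.2, 250.6 and 271.7 with A1 and 262.9, 291 and 292.7 without compound, again without overlap. FANCF had the largest difference from A1, at -1.45 ± 0.44 (adjusted p = 0.0136), from 9.6, 73 and 64 with A2 and 40.2, 74.2 and 10.5 with A3 against 94.5, 137.2 and 133.1 with A1. These signals were weak and widely spread, the U arrays gave 116.6, 85.9 and 38.3 and overlapped both inhibitor groups, and the call was lost without A1 replicate 2 (-1.36) or 3 (-1.38).

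Compound by compound the counts were alike, and these comparisons share control arrays. Against A1, A2 called 4 members lower and 7 higher (14.3% and 19.1% of all genes) and A3 called 5 lower and 6 higher (14.2% and 18.5%). Against U, A2 called 4 lower and 8 higher (15.4% and 19.8%) and A3 called 4 lower and 6 higher (14.9% and 18.8%). Members called against U but not in the average against A1 were CHEK1 with A2 (0.57 ± 0.14), ATM with A2 (0.64 ± 0.17) and A3 (0.52 ± 0.17) and RAD50 with A2 (-0.52 ± 0.13) and A3 (-0.45 ± 0.13); the other RAD50 probe set gave 0.34 and 0.15. The call of ATM with A3 was lost without any one of 4 of the 6 arrays, and that of RAD50 with A3 without A3 replicate 2 (-0.34). With A2 against A1 ATM was not called at 0.37, while its other probe sets gave 0.93 and 0.33. Their adjusted p was 0.000922 and 0.237 in a limma fit over all probe sets that passed the filter. XRCC2 was called lower with A3 against A1 at -0.34, and its call was lost without any one of the 6 arrays. PRKDC was called higher with A2 against A1 at 0.34 by its brightest probe set, but its other probe sets gave -0.11 and -0.88 and the mean of its probe sets gave -0.22; RAD17's rise of 0.33 was not seen by one other probe set of the gene, at -0.02 with A2 and -0.01 with A3, while another gave 0.25 and 0.28.

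A2 and A3 at the same dose and time did not differ by limma in any member, and 0.0932% of all genes were called lower and 0.0582% higher in A3. At an unadjusted p under 0.05 in limma 3 members differed, as 8.87% of all genes did. They were CHEK1 at -0.56 (95% interval -0.85 to -0.27), TP53BP1 at -0.29 and RAD51C at 0.30. A p that misses the threshold does not show that the compounds act alike: for BRCA1 the interval of the difference ran from -0.88 to 0.11. A1 against U also called no member (0.0116% and 0.0233% of all genes). Here 3 members had an unadjusted p under 0.05 in limma, as 8.91% of all genes had. These members were RAD54L at -0.55 (95% interval -0.98 to -0.13), BARD1 at -0.25 and XRCC2 at 0.41. The ACTB ratio was 1.05 ± 0.03 with A2, 1.06 ± 0.15 with A3, 1.33 ± 0.07 with A1 and 1.18 ± 0.12 without compound. With it as a covariate 2 members were called lower and 4 higher in the average against A1. Of all 8587 genes 771 were then called lower and 772 higher. The calls of RAD51AP1 (0.65, adjusted p = 0.0599), FANCF (-1.86), PMS1 (-0.58), MRE11 (0.45) and RAD17 (0.31) were lost. The 6 lymphoma markers summed to 4906.1 to 5482.9 with A2 and 4659.1 to 5162.9 with A3, against 12987.5 to 14385.3 with A1.

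The hairpin and inhibitor comparisons share no arrays, so their directions can be set side by side. Of the 36 members, 22 (61.1%) had opposite signs in the 2 averages, 12 were lower in both and 2 higher in both, while of 8481 genes tested in both 38.3% had opposite signs. Across the 36 members the changes correlated at r = -0.53 and across the 8481 genes at r = 0.33, as descriptions across genes. RAD54L, RAD51AP1, BARD1, FANCI, FANCG and MRE11 fell with the hairpin and rose with the inhibitors against A1, whereas UNG, PMS1 and ATR fell with both. Against U the rise of RAD54L was not called. The rises of FANCI and MRE11 lost their calls without single A1 arrays, and those of RAD51AP1 and MRE11 with the ACTB covariate. With that covariate the fall of PMS1 with the inhibitors and that of ATR with the hairpin also lost their calls. Times differ between the 2 kinds of treatment, 72 or 84 hours against 6 hours, and time and agent cannot be told apart.

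**Figure D4:**
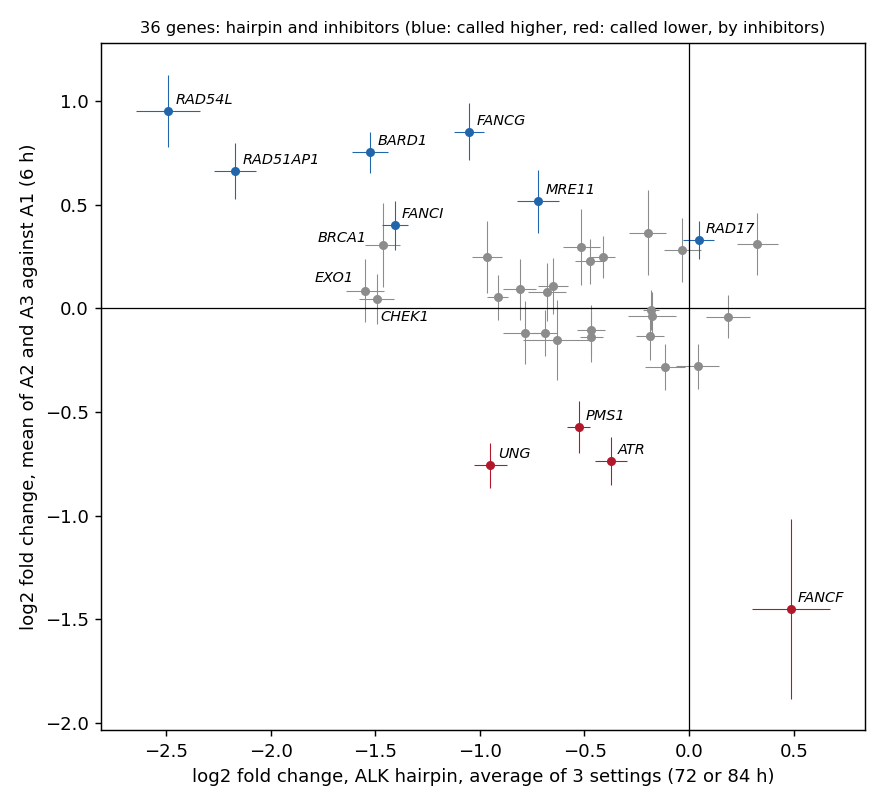
Averaged log2 fold change of each of the 36 genes with the ALK hairpin (horizontal, 72 or 84 hours) and with A2 and A3 against A1 (vertical, 6 hours), with standard errors from limma; blue and red mark genes called higher and lower with the inhibitors. RAD54L, at -2.49 and 0.95, lies in the upper left corner, and UNG, at -0.95 and -0.76, at the lower left.

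Other repair and checkpoint genes, listed by function outside the 40, moved in both directions. Of 88 such genes 65 had a probe set and 61 were tested in the hairpin fit; 24 fell and 17 rose, where 21.7% of all genes were called lower and 29.1% higher, and the median was -0.10; the difference from the members was not tested. The largest falls were those of TIPIN, a fork protection factor, at -1.26 ± 0.07, POLQ, the polymerase of microhomology-mediated end joining, at -1.19 ± 0.09, H2AX, the histone marked at breaks, at -1.11 ± 0.07, and USP1, which deubiquitinates FANCD2, at -1.04 ± 0.07. The largest rises were those of the glycosylases MPG at 0.90 ± 0.09 and OGG1 at 0.69 ± 0.10, of ERCC2, a helicase of nucleotide excision repair, at 0.67 ± 0.12, and of PARP3 at 0.61 ± 0.09.

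With the hairpin, genes of DNA replication and mitosis moved in the direction of most members. Of 43 replication genes 41 fell with the hairpin and none rose (median -1.18), and of 30 mitosis genes all 30 fell (median -1.27); the recombination members' median of -1.47 stood beside these and the end joining members' median of -0.20 did not. Replication genes fell in 38, 39 and 31 cases of 43 in TS at 84 hours, TS at 72 hours and Su-DHL1, and with A5M in 7. Among all genes 18.8%, 15.2%, 10.7% and 3.76% were called lower, in that order. Of 15 p53 targets 9 rose and 1 fell (median 0.48). In the hairpin average 21.7% of all genes were called lower and 29.1% higher. With the inhibitors, 25 of 30 mitosis genes rose and none fell (median 0.55), 13 of 43 replication genes rose and 3 fell (median 0.22), and of 62 other repair genes 14 rose and 6 fell (median 0.14). Of all genes tested with the inhibitors 22.0% were called higher and 16.3% lower. The part of cell cycle position in the members' changes was not tested.

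**Figure D5:**
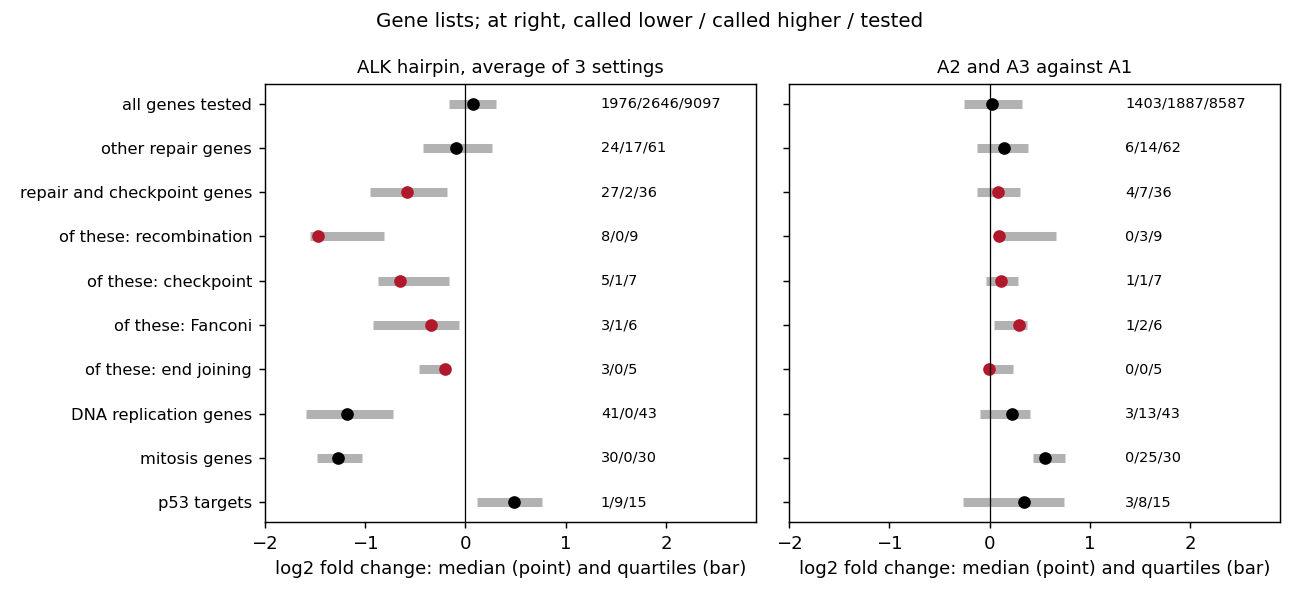
Median (point) and quartiles (bar) of the log2 fold change over the tested genes of each list, for the ALK hairpin average (left) and for A2 and A3 against A1 (right); red marks the repair and checkpoint genes and 4 of their roles, and the numbers give genes called lower, called higher and tested. With the hairpin the recombination genes, at -1.47, lie beside the replication and mitosis genes, and with the inhibitors the mitosis genes lie highest, at 0.55.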

How the data were processed

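RNA of 33 samples was measured on 1-colour arrays. The authors deposited MAS5 signal intensity values, a linear scale that MAS5 (named in the submitters' processing notes) scales per array; the deposited values have a 2% trimmed mean between 200.06 and 200.08 on every array, and array medians ran from 54.8 to 69.3. No further normalization was applied. From 22283 probe sets, 68 controls were removed; 19065 of the rest had 1 gene symbol, 1043 several and 2107 none, and only the first kind was named. Log2(signal + 11) was modelled by lmFit and eBayes of limma 3.58.1 (R 4.3.3) over 21 hairpin arrays or 12 inhibitor arrays, with 1 mean per group. Probe sets were kept where 3 or more arrays in a model lay at or above the 40th percentile of their array, and a gene was read by its passing probe set with the highest mean. P-values were adjusted by Benjamini-Hochberg over 9097 genes (hairpin) or 8587 (inhibitors), and the threshold was 0.05. The number of arrays limits the precision. The members and lists were chosen with earlier results of these data known. Array values were given for the 6 largest falls and the called rises of the hairpin average and for the largest called change of each other comparison; in each role the largest and smallest changes, and every member not called or removed, were named, with the 4 largest falls and rises among other repair genes. The array values of ATR, BARD1 and RAD54L with inhibitors, those of UNG with the hairpin, and the promoters shown were added after values were seen. No pairing of the arrays by replicate number was seen, and none was modelled in the main fit. Alternatives were another pseudocount, filter, normalization, probe set rule, covariate, block, choice of arrays, and leaving out each array. The pipeline was tested on simulated data.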

Additional observations from a re-analysis of the deposited data

Results flagged for a closer look

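Between TS and Su-DHL1 at 72 hours, 7 members had a hairpin response that differed by the interaction term in limma: RAD51C by 0.56, BRCA1 by 0.98, BARD1 by 0.98, EXO1 by 1.11, FANCG by 0.71, FANCL by 0.82 and CHEK1 by 1.11 on the log2 scale, each with the smaller fall in Su-DHL1. Between 84 and 72 hours in TS cells, RAD51AP1 differed by -1.02 and FANCI by -1.06, with the larger fall at 84 hours.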

How the results depend on the processing

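Of 204 member results called in any comparison, 202 kept direction and call with a pseudocount of 1, 203 with 32, 200 with quantile normalization, 191 with no filter, 193 with the mean of a gene's probe sets and 142 when the ACTB ratio was added as a covariate. Leaving out 1 array kept 1526 of 1659. Brackets below give the count over all genes in the same direction. With the ACTB covariate, members called in the hairpin average were 1 higher (1277 of 9097), in TS at 84 hours 17 lower (971), between lines 1 (56) and with A5M 0 higher (269). In the inhibitor average 2 were lower and 4 higher (771 and 772 of 8587), with A2 against A1 2 and 3 (686 and 668), and with A3 against A1 1 lower (734). With no filter, the hairpin average had 1 higher (2674 of 11963), A5M 0 higher (269), the times 1 (77) and A3 against A1 3 lower (1180). Under quantile normalization the hairpin average and A5M had 0 higher (2328 and 298 of 9097). With the mean of probe sets, TS at 84 hours and at 72 hours had 1 higher each (2043 and 1768 of 9097), A5M 0 higher (292) and uninduced lines 2 higher (1017). With only the compared arrays, TS at 72 hours had 2 higher (2046 of 8259), A5M 0 lower and 0 higher (98 and 51 of 8235), and uninduced lines 4 higher (1165 of 8278). With a pseudocount of 32 the times had 1 (78 of 9097) and uninduced lines 2 higher (997). Uninduced lines also had 2 higher with the filter at the array median (1013 of 7788). Members near 0 in the hairpin average changed sign: XRCC2 to -0.051 (quantile) and -0.18 (ACTB), FANCC to 0.0016 (ACTB), XRCC4 to 0.051 (ACTB), and RAD17 to -0.14 (mean of probe sets, where it was called lower) and -0.22 (ACTB). Not called as reported, TP53BP1 was called higher with the mean of probe sets, and XRCC4 and FANCE were called lower under quantile normalization. PRKDC with A2 against A1 turned to -0.22 (mean of probe sets). The cause was not tested.

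Without 1 array, XRCC2 ran from -0.012 to 0.12, FANCC from -0.080 to 0.017 and RAD17 from -0.00081 to 0.078 in the hairpin average. Members called ran from 1 to 2 higher in the hairpin average, from 0 to 1 higher in TS at 72 hours, from 1 to 2 higher against A5M, and from 0 to 1 in each direction for A5M. Among all genes tested in those fits, 2531 to 2685 were called higher in the hairpin average and 1403 to 1520 in TS at 72 hours. Against A5M 1905 to 1983 were called higher. For A5M 236 to 293 genes were called lower and 200 to 299 higher.

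With the replicate number as a block, 27 members were called lower and 2 higher in the hairpin average (1941 and 2594 of 9097 genes). Lower were 26 in TS at 84 hours (1668), 23 in TS at 72 hours (1333) and 21 in Su-DHL1 (909). With A5M 0 were higher (252 genes), and between times 1 was lower (65 genes). That fit called 6 members lower between uninduced lines, but each block lies within 1 line, so it cannot decide on that difference. No pairing by number was seen: of 33 pairs with one number, 0 had a correlation of deviations over 0.1. Such correlations cannot exclude that arrays with one number were handled together.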
